A study of Rattus norvegicus with 8 samples.

Results

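The genes described here are 45 cell cycle and mitotic genes measured in rat Sertoli cells. They were listed by symbol, and each was taken from the gene-level array rows that carry that symbol alone. Of the 45, 39 had such a probe set, out of 17582 genes with a probe set of 1 symbol. Where a gene had several rows, the row with the highest mean signal stood for it. A further 2, Mcm3 and Rrm2, lay only on rows shared with other symbols, and 4 (Cdc2, Birc5, Rrm1 and Cenpe) had no row under their symbol. Cdc2 is the older name of Cdk1, which was measured. A signal filter, the median of all non-control probe sets at a log2 signal of 7.50, was passed by 37 members. Bub1b and Cdca3 lay below it, with mean log2 signals of 7.46 and 7.13, and the members just inside were Aurka at 7.70 and Cdca8 at 7.75.

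The arrays came from primary Sertoli cells, the somatic nurse cells of the seminiferous tubule, grown in medium with 10% serum. The groups were a solvent control, NP at 0.1 µM, MBP at 0.1 mM, and NP+MBP at those same doses, each over 24 hours. NP and MBP are written as in the labels, which give no full names. Each group had 1 gene-level array, so a difference between a pair of arrays cannot be set against replicates, and precision is limited by how few arrays there are.

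Cells that divide pass through G1, copy their DNA in S phase, and separate the chromosomes in mitosis. D- and E-type cyclins act in G1 and at the entry to S phase, whereas cyclins A and B with the kinase Cdk1 drive S phase and mitosis, and their transcripts are most abundant late in the cycle. Sertoli cells proliferate in the fetal and juvenile testis and leave the cycle around puberty, when the inhibitors Cdkn1b and Cdkn1a accumulate.

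Most transcripts of the mitotic apparatus were somewhat more abundant on each treated array than on the control array, whereas the G1 cyclins, the CDK inhibitors and the MCM helicase genes other than Mcm5 and Mcm7 lay within 0.07 of their control values on the log2 scale. All differences were small. Against control, 31 of 37 members were higher with NP (62.4% of all probe sets above the filter were), 33 with MBP (64.1%) and 33 with NP+MBP (64.9%). The median member difference was 0.072, 0.116 and 0.133 on the log2 scale, against 0.022, 0.025 and 0.033 over all 13798 probe sets. These 3 comparisons share the control array. Against the single compounds, 27 members were higher on the NP+MBP array than with MBP (55.7%), and 27 than with NP (56.4%), with medians of 0.037 and 0.042 against 0.007 and 0.009 over all sets. In bulk RNA, a different number of cells of a type and a different amount of RNA per cell cannot be told apart.

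The split between higher and lower depended on the scaling. After quantile normalization 27, 27 and 28 members were higher with NP, MBP and NP+MBP than control, beside 47.8%, 49.1% and 48.8% of all sets, and 27 and 23 were higher on the NP+MBP array than with MBP and NP, beside 49.1% and 49.3%. After median centring the counts were 34, 35, 35, 28 and 27 in the same order of pairs, beside 75.6%, 75.5%, 76.4%, 61.8% and 59.8%. The member median less the median of all sets was 0.050, 0.090 and 0.099 against control as deposited, and 0.057, 0.079 and 0.087 after quantile normalization. The antigenomic background probe sets, of which there are 45, went the other way, with median differences from control of -0.109, -0.057 and -0.139, and their part in the result was not tested.

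A difference of at least 1.2-fold, 0.263 on the log2 scale, was used to describe single members. It was reached upward by 1 member with NP (Itgb3bp; 1.95% of all sets), by 2 with MBP (Bub1 and Itgb3bp; 1.88%) and by 8 with NP+MBP (Casc5, Ttk, Itgb3bp, Nusap1, Bub1, Ccna2, Top2a and Ect2). These 8 are 21.6% of the members, beside 3.49% of all sets. Itgb3bp, counted with NP, with MBP and with NP+MBP, had a control signal of 7.49, below the filter. It passed the filter only through the treated arrays. On the NP+MBP array against MBP 0 members reached 1.2-fold (0.21%), and against NP 1 did, Casc5 (0.616%). No member was 1.2-fold lower in any pair, where 1.09%, 1.08%, 2.12%, 0.087% and 0.217% of all sets were. A 1.5-fold difference was reached by 0 members in all 5 pairs, beside 0.0652%, 0.058%, 0.21%, 0.029% and 0.0362% of all sets.

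**Figure D1:**
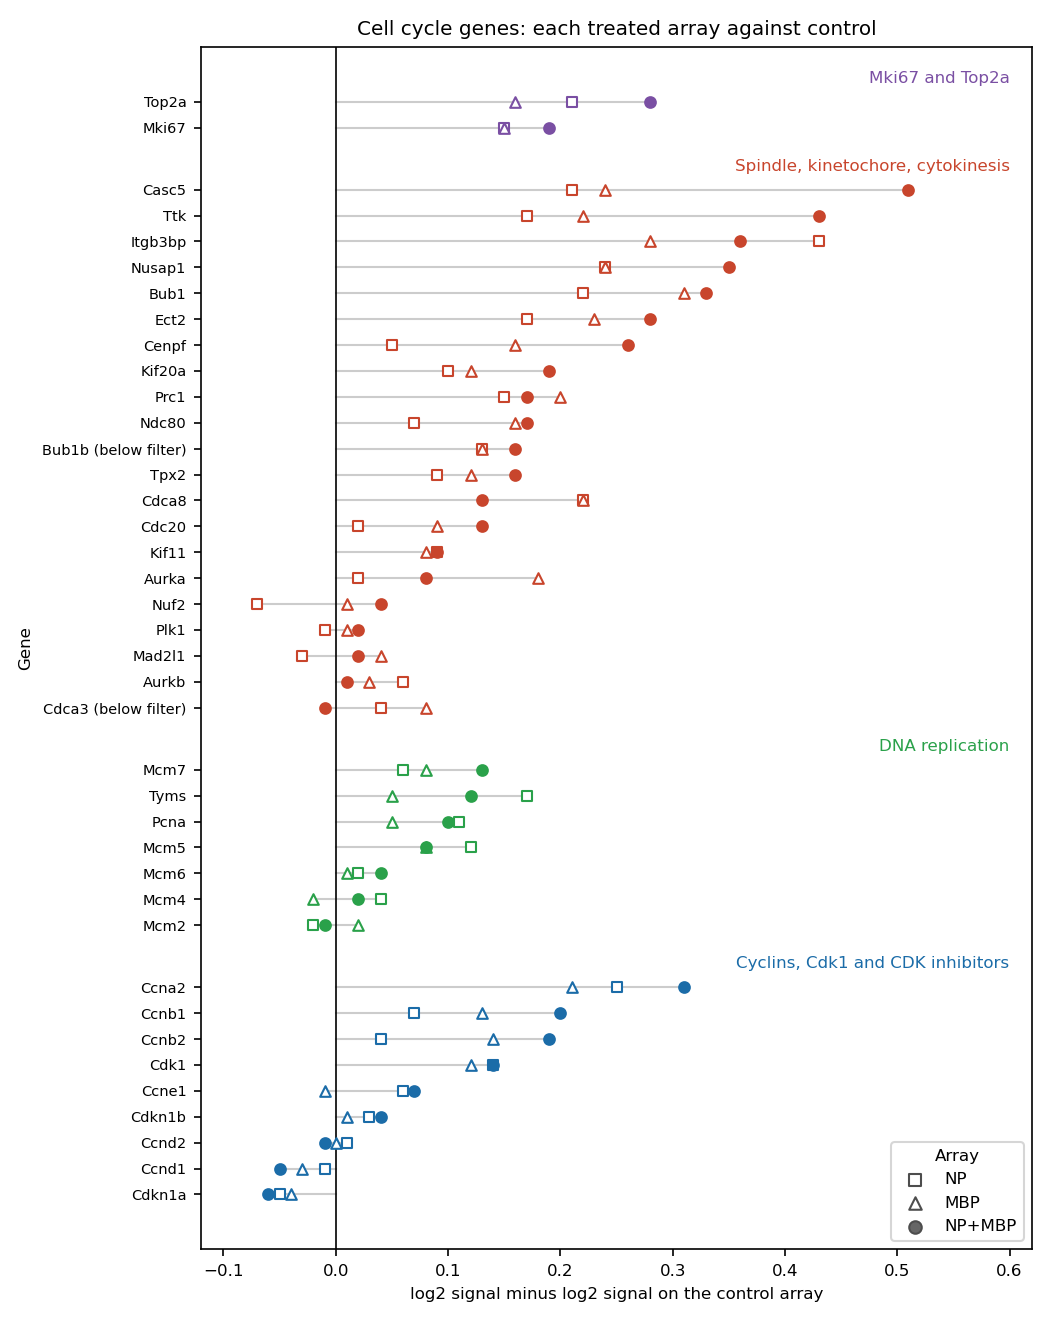
Log2 signal of each member on the NP, MBP and NP+MBP arrays minus its log2 signal on the control array, 1 array per group, grouped by role. The points of Casc5 reach 0.51 and those of Ttk 0.43 to the right, while those of Ccnd1, Ccnd2, Cdkn1a and the MCM genes other than Mcm5 and Mcm7 stay within 0.06 of the control line.

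The effect of MBP can be read in 2 pairs with no array in common, MBP against control and NP+MBP against NP. That of NP can be read in NP against control and in NP+MBP against MBP. A pair mean is the mean of such a couple of differences ± SD (n = 2 pairs), and its SD also holds any interaction of the compounds. For a given gene the SD is the same number for NP and MBP by construction, so the 2 are not separate readings of spread. Of the 37 members, 26 were higher in both MBP pairs (42.1% of all sets) and 25 in both NP pairs (39.7%). The control array was the lowest of the 4 for 28 members (48.3%), the NP+MBP array the highest for 23 (35.6%), and both held for 20 (25%).

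In an additive limma model of both compounds, 0 of 37 members passed a Benjamini-Hochberg adjusted p of 0.05 for MBP (0% of all sets), and 0 for NP (0%). Among the 37 members, the lowest adjusted p in that limma fit was 0.177 for MBP and 0.411 for NP. Sets outside the members reached lower values for both compounds. At an unadjusted p under 0.05, 15 members were past the threshold for MBP, all higher (10.2% of all sets), and 7 for NP, all higher (7.73%). Of the 15, 11 belong to the spindle and kinetochore genes, 3 are Ccna2, Ccnb1 and Ccnb2, and 1 is Top2a. The model has 1 residual degree of freedom. The members come from the same arrays and are not independent readings of a condition.

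**Figure D2:**
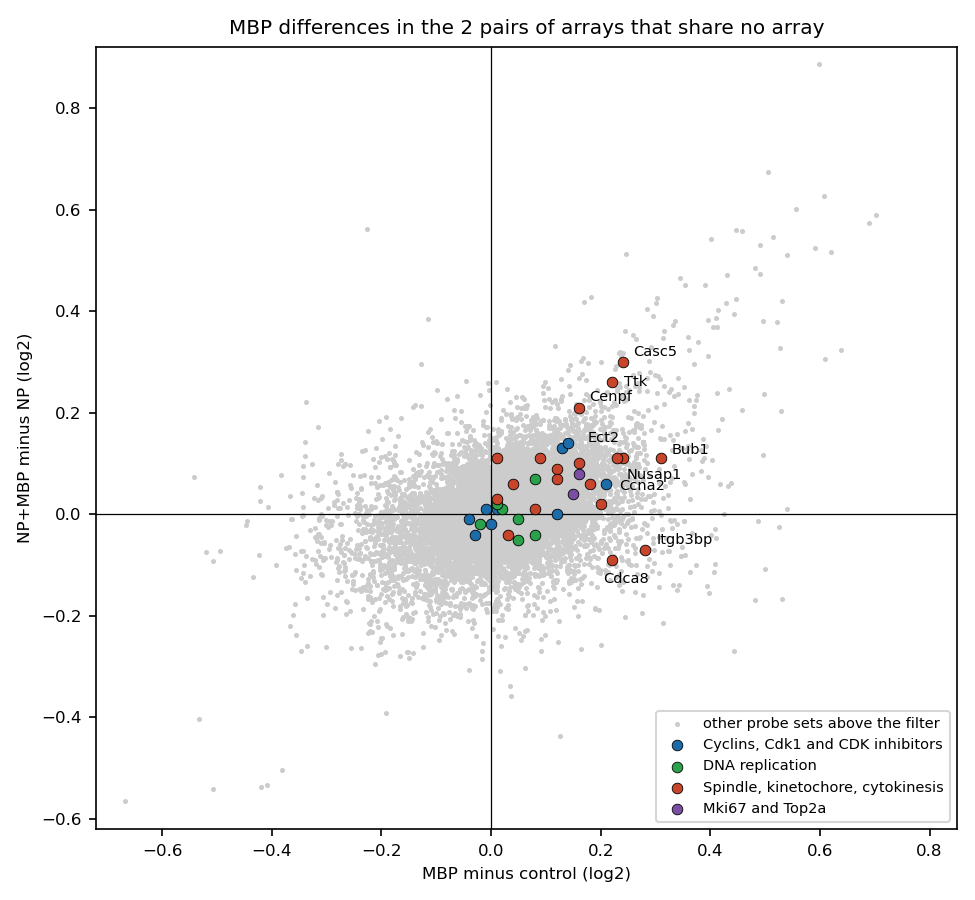
The MBP difference of each probe set in the pair without NP (horizontal, log2) and in the pair with NP (vertical, log2), with all probe sets above the filter in grey and the members in colour by role. Casc5, Ttk and Cenpf lie high in both pairs, whereas Itgb3bp and Cdca8 are higher in the first pair and lower in the second.

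**Figure D3:**
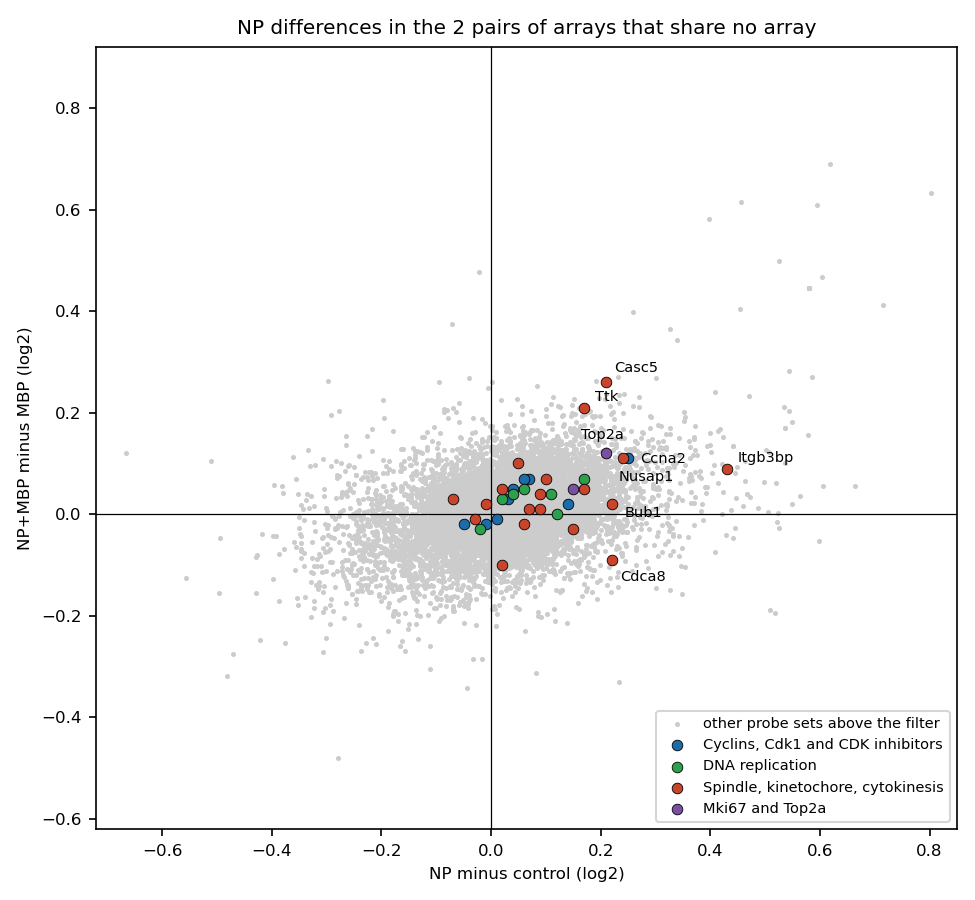
The NP difference of each probe set in the pair without MBP (horizontal, log2) and in the pair with MBP (vertical, log2), drawn as for MBP. Casc5 and Ttk lie above 0.2 in the pair with MBP, and Cdca8 is lower there by 0.09.

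Genes that peak in mitosis often carry CCAAT boxes and a cell cycle homology region (CHR) in their promoters, and genes of DNA replication often carry E2F sites, so the promoters of members from each role are shown to set these elements beside the measured groups. The sequences are the 150 bases before the transcription start in RefSeq for GRCr8, written 5' to 3' along the gene. Capitals mark matches on either strand to CCAAT, to TTTGAA or TTCGAA (CHR), and to TTGGCGC or TTCGCGC (E2F).
Ccnb2: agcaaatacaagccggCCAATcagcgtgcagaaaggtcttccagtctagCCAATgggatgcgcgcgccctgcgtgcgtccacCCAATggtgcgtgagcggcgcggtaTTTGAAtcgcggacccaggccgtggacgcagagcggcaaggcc
Ccnb1: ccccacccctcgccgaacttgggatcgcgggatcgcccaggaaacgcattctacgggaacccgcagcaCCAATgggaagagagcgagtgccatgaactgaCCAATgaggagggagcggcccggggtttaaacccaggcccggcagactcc
Mki67: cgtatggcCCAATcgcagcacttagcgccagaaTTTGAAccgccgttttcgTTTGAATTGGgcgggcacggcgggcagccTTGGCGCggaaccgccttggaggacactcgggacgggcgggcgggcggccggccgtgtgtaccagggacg
Top2a: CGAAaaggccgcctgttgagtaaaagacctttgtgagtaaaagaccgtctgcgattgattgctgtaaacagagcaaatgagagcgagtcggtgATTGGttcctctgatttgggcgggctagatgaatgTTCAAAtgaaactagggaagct
Ttk: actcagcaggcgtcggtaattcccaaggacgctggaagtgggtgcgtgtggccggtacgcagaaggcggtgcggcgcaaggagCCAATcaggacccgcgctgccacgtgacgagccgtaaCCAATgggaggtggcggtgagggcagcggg
Casc5 (Knl1): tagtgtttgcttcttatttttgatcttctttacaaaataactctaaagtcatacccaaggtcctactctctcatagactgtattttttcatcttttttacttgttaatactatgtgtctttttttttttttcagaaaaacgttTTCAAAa
Mcm7: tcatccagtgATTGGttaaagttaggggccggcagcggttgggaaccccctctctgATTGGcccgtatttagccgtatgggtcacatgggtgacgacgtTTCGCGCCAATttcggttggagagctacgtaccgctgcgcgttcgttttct
Pcna: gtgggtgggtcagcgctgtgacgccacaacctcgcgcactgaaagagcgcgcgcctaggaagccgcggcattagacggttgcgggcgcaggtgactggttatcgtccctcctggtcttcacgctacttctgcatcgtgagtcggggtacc
In GRCr8 they lie at chr8:79981659-79981808 (minus strand) for Ccnb2, chr2:33655226-33655375 (minus) for Ccnb1, chr1:199952594-199952743 (minus) for Mki67 and chr10:84473094-84473243 (minus) for Top2a. Ttk is at chr8:93634489-93634638 (plus), Casc5 under its current name Knl1 at chr3:126490816-126490965 (plus), Mcm7 at chr12:22163179-22163328 (minus) and Pcna at chr3:139955821-139955970 (minus). The capitals CGAA at the left end of Top2a are the end of a CHR match cut by the window. In Mcm7, the E2F matches overlap each other and a CCAAT box, and in Mki67 a CHR match overlaps a CCAAT box. The Casc5 sequence is rich in t, with a long run of t before cag shortly ahead of its CHR match. Whether the RefSeq start of Casc5 is the one used in these cells was not tested, so that match is uncertain as a promoter element.

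A RefSeq promoter of 300 bases, from 250 before the start to 50 after it, was found for 33 of the 39 measured members. A CCAAT match lay in 22 of the 33, beside 37.5% of all 33469 promoters in that table. CHR matches lay in 13 of 19 spindle and kinetochore members, 2 of 6 replication members and 2 of 6 cyclin and CDK members, beside 19.7% of all promoters. The 13 include the uncertain Casc5 match. E2F matches lay in 5 of 6 replication members but 1 of 19 spindle and kinetochore members, beside 3.66% of all. Ttk's CHR match begins 5 bases after the start and is not printed. A match is a description of these letters, and its part in the measured differences was not tested.

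Among the cyclins and CDKs, the cyclins of late cycle were higher on every treated array, whereas the G1 cyclins were not. The log2 signal of Ccna2, the A-type cyclin of S phase and mitotic entry, was 9.47 on the control array, 9.72 with NP, 9.67 with MBP and 9.78 with NP+MBP. The control array was the lowest and the NP+MBP array the highest, a difference of 0.31, or 1.24-fold. Its pair mean was 0.18 ± 0.10 for NP and 0.13 ± 0.10 for MBP (SD, n = 2 pairs).

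Ccnb1, the B-type cyclin that activates Cdk1 at mitosis, had log2 signals of 8.82, 8.89, 8.95 and 9.02 for control, then NP, MBP and the combination, the order used from here on. Ccnb2, its close relative, was at 9.17, 9.21, 9.31 and 9.35. Both genes were higher on each array with MBP than on each array without it. Their MBP differences hardly varied between the pairs, at 0.13 and 0.13 for Ccnb1 and at 0.14 and 0.14 for Ccnb2. The limma coefficients for MBP were 0.128 with an SE of 0.0305 for Ccnb1 (adjusted p = 0.265) and 0.139 with an SE of 0.0305 for Ccnb2 (adjusted p = 0.254). The Ccnb2 row is marked as open to cross-hybridization, and a row of that symbol on chromosome 1, marked likewise, read 9.11, 9.13, 9.26 and 9.30. The values of both rows are uncertain for that reason.

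Cdk1, the kinase that these cyclins activate, had log2 signals of 9.08, 9.22, 9.20 and 9.22 in that order. The control array was the lowest and the treated arrays lay within 0.02 of each other. Over these 4 genes the median difference from control was 0.106 with NP, 0.132 with MBP and 0.191 with NP+MBP.

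Ccnd1, the D-type cyclin of early G1, was at 8.64, 8.63, 8.61 and 8.58. Ccnd2, the other D-type cyclin measured, was at 11.77, 11.79, 11.77 and 11.76. Ccne1, the E-type cyclin at the entry to S phase, was at 8.26, 8.31, 8.25 and 8.32. None of the 3 differed from its control value by more than 0.07 on any array, and their median differences from control were 0.013, -0.006 and -0.010. Those signs are not stable, since after median centring the MBP and NP+MBP medians were 0.019 and 0.023, and after quantile normalization the NP median was -0.001.

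The CDK inhibitors were also close to control. Cdkn1a, which encodes p21, had log2 signals of 10.71, 10.67, 10.67 and 10.66, and Cdkn1b, which encodes p27, had 9.72, 9.76, 9.73 and 9.76. The treated arrays were below control for Cdkn1a and above it for Cdkn1b, by at most 0.06 and 0.04. After quantile normalization Cdkn1b was on the other side of control in all 3 comparisons.

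The DNA replication members differed little. Over the 7 of them the median difference from control was 0.057 with NP, 0.053 with MBP and 0.075 with NP+MBP, and it was -0.009 for NP+MBP against NP. None reached 1.2-fold in any pair, and 0 of 7 had an unadjusted limma p under 0.05 for MBP and 1, Tyms, for NP. Tyms, the enzyme that makes thymidylate for DNA, had log2 signals of 9.79, 9.95, 9.84 and 9.91. It was higher on both arrays with NP than on both without, with an NP pair mean of 0.12 ± 0.07 and a limma coefficient of 0.118 with an SE of 0.0387 (adjusted p = 0.411).

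Pcna, the sliding clamp of the replication fork, was at 9.85, 9.95, 9.90 and 9.94, with the control array lowest. Mcm7, a subunit of the replicative helicase, was at 9.23, 9.29, 9.31 and 9.36, the one helicase member that was lowest on the control array and highest with NP+MBP by more than 0.1. Mcm5 was at 8.24, 8.36, 8.32 and 8.31, with control lowest and NP highest. The replication members thus did not share 1 order of the arrays.

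The remaining helicase subunits lay closest to control. Mcm2 was at 9.67, 9.65, 9.70 and 9.66, Mcm4 at 10.10, 10.14, 10.08 and 10.12, and Mcm6 at 8.94, 8.96, 8.95 and 8.98. No treated array lay more than 0.04 from control for any of these 3, and the Mcm4 row is marked as open to cross-hybridization. Mcm3 and Rrm2, read only on rows shared with other symbols, are uncertain. The shared Mcm3 row was at 8.77, 8.67, 8.74 and 8.68, with control highest, and the higher of the Rrm2 rows at 9.95, 10.04, 9.95 and 9.99.

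The spindle and kinetochore genes held the largest differences. All 19 above the filter were higher with MBP and all 19 with NP+MBP than on the control array, and 16 with NP, beside 64.1%, 64.9% and 62.4% of all sets. After quantile normalization these counts were 17, 17 and 15, beside 49.1%, 48.8% and 47.8%. Their median differences from control were 0.092 with NP, 0.161 with MBP and 0.168 with NP+MBP, and 6 of 19 reached 1.2-fold with NP+MBP (3.49% of all sets). The control array was the lowest for 16 of the 19 (48.3%).

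Casc5, now named Knl1, is the kinetochore scaffold that recruits the checkpoint kinase Bub1 and its partners. Its log2 signal was 8.84 on the control array, 9.05 with NP, 9.08 with MBP and 9.35 with NP+MBP, a 1.42-fold difference between the extremes. Each compound's array was above control, and the array with both was above each compound alone. The pair means were 0.24 ± 0.04 for NP and 0.27 ± 0.04 for MBP, and the limma coefficient for MBP was 0.27 with an SE of 0.033 (adjusted p = 0.177). With a limma prior variance that follows signal its adjusted p for MBP was 0.0327, the only member past the threshold in that fit.

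The row chosen for Casc5 spans 34 bases on chromosome 3, from 105572400 to 105572433 in RGSC3.4, while 2 longer rows cover 21101 and 28146 bases. The 21101-base row read 8.87, 9.06, 9.06 and 9.15, and the 28146-base row 8.28, 8.39, 8.44 and 8.59. The chosen row lay below the 21101-base row on the control and NP arrays, and above it with MBP and NP+MBP. Its choice by mean signal thus rests on the arrays with MBP, and favours a row with a large difference there. The following comparison is of the 2 longer rows. Both had the control array lowest and the NP+MBP array highest, with differences of 0.28 and 0.31 against 0.51 for the chosen row. With the prior that follows signal, their limma adjusted p for MBP was 0.184 and 0.156, so the call rests on the 34-base row alone. A 38-base row lay below the filter at 4.66, 5.65, 5.57 and 5.82.

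**Figure D4:**
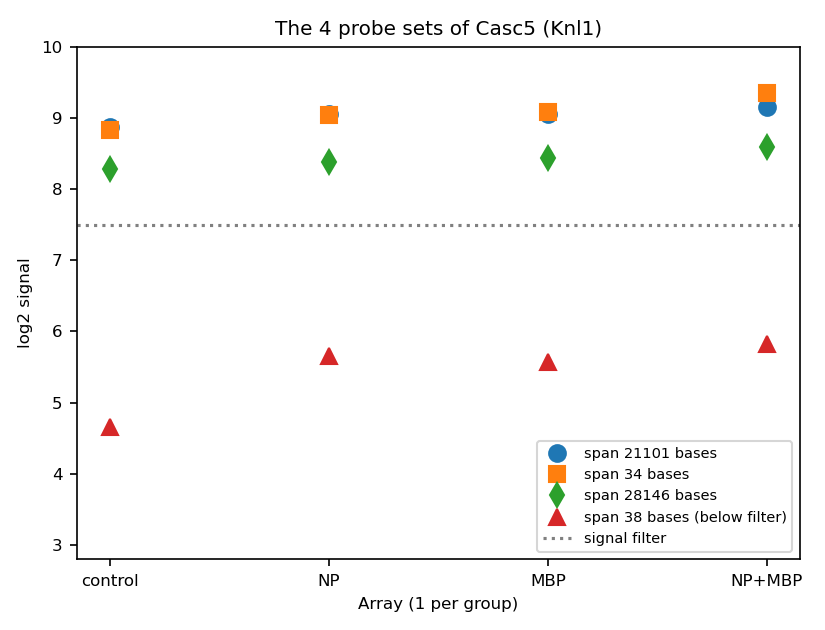
Log2 signal of the 4 probe sets of Casc5 on each array (1 array per group), marked by the length of genome each spans, with the signal filter dotted. The control array is lowest for every set, and the NP+MBP array highest, with a smaller spread on the sets that span 21101 and 28146 bases than on the set chosen by its mean.

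Ttk, the checkpoint kinase also called Mps1, lies on chromosome 8 from 88882011 to 88944340 in RGSC3.4. Its log2 signal was 7.76 on the control array, 7.93 with NP, 7.98 with MBP and 8.18 with NP+MBP. The order of the arrays was that of Casc5, and the array with both was 1.34-fold above control. The MBP pair mean was 0.24 ± 0.03, with a limma coefficient of 0.239 and an SE of 0.0319 (adjusted p = 0.186).

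Bub1, a checkpoint kinase at the kinetochore, had log2 signals of 8.50, 8.71, 8.81 and 8.82. The control array stood below the others and both arrays with MBP were nearly equal. Its MBP difference was 0.31 without NP and 0.11 with it. Cenpf, a kinetochore protein of late cycle, had log2 signals of 8.40, 8.45, 8.56 and 8.66. Both arrays with MBP were above both without it, with an MBP pair mean of 0.18 ± 0.03.

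Itgb3bp, which encodes the inner kinetochore protein CENP-R, had log2 signals of 7.49, 7.92, 7.77 and 7.86. All treated arrays were above control, and the NP array rather than the NP+MBP array was the highest. Its MBP difference was 0.28 from control but -0.07 on top of NP, so the MBP pair mean of 0.10 ± 0.24 was smaller than its spread. The control signal lies near the filter.

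The other kinetochore and checkpoint members differed less. Ndc80 and Nuf2, which form part of the complex that grips microtubules, were 0.17 and 0.04 higher with NP+MBP than control, and Mad2l1, a checkpoint protein, 0.02 higher. Nuf2 and Mad2l1 were lower with NP than control, by 0.07 and 0.03. Bub1b, a checkpoint partner of Bub1 below the filter, had log2 signals of 7.36, 7.49, 7.49 and 7.52.

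The spindle and cytokinesis members were all lowest on the control array, 6 of 6 (48.3% of all sets). Nusap1, which bundles spindle microtubules, had log2 signals of 8.37, 8.61, 8.61 and 8.72. The array with both compounds was the highest at 1.27-fold above control, and the single compounds were equal. Ect2, the exchange factor that starts the cleavage furrow, was at 8.23, 8.41, 8.46 and 8.52, in that same order with NP below MBP. Kif20a and Prc1, which act on the central spindle, were 0.19 and 0.17 higher with NP+MBP than control. Tpx2, a spindle assembly factor, was 0.16 higher, and Kif11, the motor that separates the spindle poles, 0.09 higher.

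The mitotic kinases and passenger proteins were a mixed group. Plk1 was at 9.38, 9.37, 9.38 and 9.40, and Aurkb at 9.05, 9.10, 9.08 and 9.06, so both lay within 0.06 of control. Aurka, the centrosomal Aurora kinase, was at 7.63, 7.65, 7.81 and 7.71, highest with MBP. Cdca8, a passenger protein that works with Aurkb, was at 7.61, 7.83, 7.83 and 7.74, with both single compounds above the array with both. Cdc20, which activates the anaphase-promoting complex, was at 9.78, 9.80, 9.87 and 9.91, higher on both arrays with MBP than on both without. Cdca3, below the filter, was at 7.11, 7.14, 7.19 and 7.09, with the NP+MBP array lowest.

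The proliferation antigen Mki67 had log2 signals of 9.59 on the control array, 9.74 with NP, 9.74 with MBP and 9.78 with NP+MBP. Top2a, the topoisomerase that untangles chromosomes, was at 8.84, 9.04, 9.00 and 9.12. For both genes the control array was the lowest and the NP+MBP array the highest, 1.14-fold above control for Mki67 and 1.22-fold for Top2a. Their median differences from control were 0.179 with NP, 0.156 with MBP and 0.239 with NP+MBP.

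**Figure D5:**
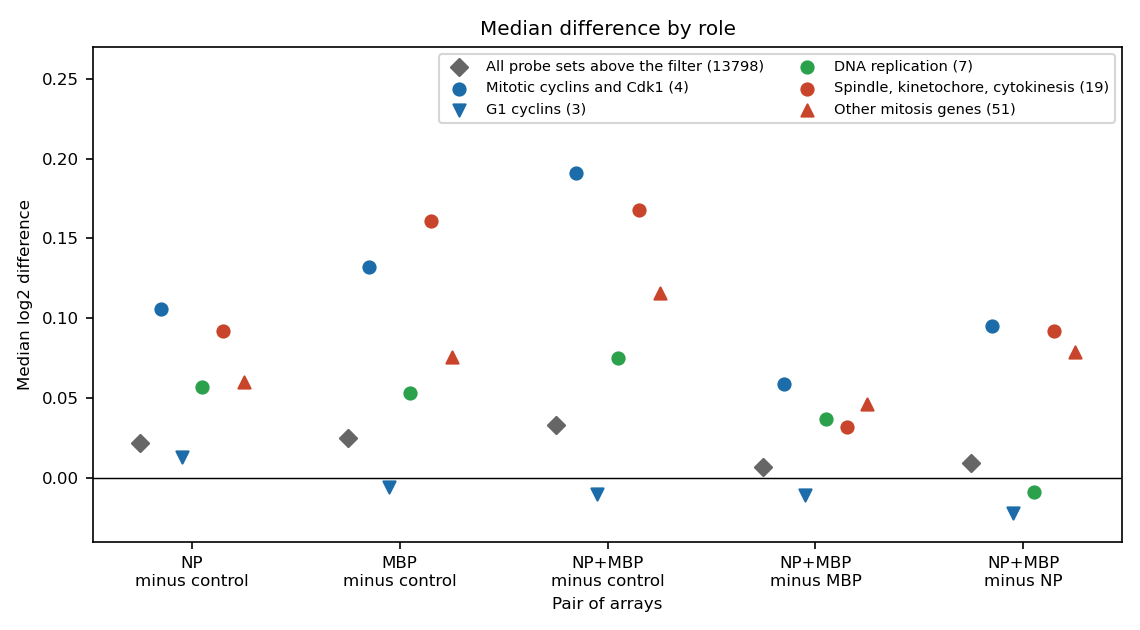
Median log2 difference of each role group in the 5 pairs of arrays, with the number of probe sets in brackets and all probe sets above the filter as grey diamonds. The spindle and kinetochore members and the mitotic cyclins lie above the other groups drawn in the comparisons with control, and the G1 cyclins near 0.

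Other genes of the same pathways were read from lists that leave out the members. Of 51 further genes of mitosis and cytokinesis above the filter (61 of 74 measured), 45 were higher with NP+MBP than control (64.9% of all sets), with a median of 0.116, and 7 reached 1.2-fold (3.49%). In limma, 17 of the 51 had an unadjusted p under 0.05 for MBP, all higher (10.2% of all sets), and 0 an adjusted p under 0.05, with a lowest of 0.205. Kif18a, a kinesin that aligns chromosomes, had log2 signals of 7.67, 7.83, 7.96 and 8.03. Sass6, a centriole assembly protein, was at 7.43, 7.70, 7.79 and 7.83, with its control signal below the filter. Fbxo5, an inhibitor of the anaphase-promoting complex, was at 7.97, 8.18, 8.24 and 8.36, so that all 3 had the control array lowest and the NP+MBP array highest. Ube2c, the ubiquitin-conjugating enzyme of that complex, went the other way at 9.29, 9.02, 9.12 and 9.11, with control highest.

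Of 26 further genes of origin licensing and the replication fork above the filter, 20 were higher with NP+MBP than control, with a median of 0.085, and of 24 cell cycle kinases, phosphatases and transcription factors 18 were, with a median of 0.052. Over all sets 64.9% were higher. With MBP against control, 23 of the 26 and 18 of the 24 were higher, beside 44 of the 51 mitosis genes and 64.1% of all sets. On the NP+MBP array against MBP, 10 of the 26 were higher, beside 37 of the 51 and 55.7% of all sets. In limma, 6 of the 26 had an unadjusted p under 0.05 for MBP (4 higher) and 1 of the 24, where 15.3% of all sets had one and 10.2% were also higher, and 0 had an adjusted p under 0.05. Dbf4, the activator of the kinase that fires origins, was at 7.51, 7.81, 7.80 and 7.81, with the treated arrays alike. Cdc25c, a phosphatase that activates Cdk1, was at 8.01, 8.14, 8.20 and 8.27, with control lowest. E2f1, the transcription factor of S phase genes, was at 8.16, 8.10, 8.01 and 8.06, with control highest.

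The label of the cells was checked against cell type markers. Sox9, a transcription factor of Sertoli cells, was at 10.62, 10.60, 10.65 and 10.63, 13 of 14 measured Sertoli markers passed the filter, and Amh did not. The log2 summed signal of the 14 ran from 14.51 to 14.53. Vim, the strongest of them at 13.15, 13.17, 13.17 and 13.20, weighs most in that sum. The Fshr row is marked as open to cross-hybridization. Cldn11, a tight junction protein of Sertoli cells, was at 10.04, 10.02, 9.37 and 9.46, lower on both arrays with MBP although the sum was steady. Wt1, another of the listed Sertoli markers, was at 9.69, 9.64, 9.81 and 9.77, higher on both arrays with MBP. Of the 14, 4 were higher and 4 lower in both MBP pairs. Peritubular myoid markers (7 of 7) also passed, with log2 summed signals of 15.16 to 15.18.

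The summed signals of germ cell and of fibroblast markers differed with MBP in opposite directions. Of 15 measured germ cell markers 5 passed the filter, and the log2 summed signal of all 15 was 12.06, 12.04, 12.16 and 12.16. With MBP 10 of the 15 were higher and 5 lower than control, from -0.14 for Stra8 to 0.93 for Dazl, and 8 were higher in both MBP pairs. Dazl, an RNA-binding protein of germ cells whose mean lay below the filter, was at 6.56, 6.85, 7.49 and 7.63. Tex15 was at 7.81, 7.82, 8.32 and 8.36 and Mael at 7.88, 7.89, 8.28 and 8.43, whereas Uchl1 was at 11.09, 11.10, 11.10 and 11.07.

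All 8 fibroblast markers passed the filter, and their log2 summed signal was 14.48, 14.49, 14.41 and 14.42. With MBP 7 of the 8 were lower than control, with a median of -0.095, and 5 were lower in both MBP pairs. The largest MBP differences of the 8 were those of Dpt and Cd34. Dpt, a matrix protein, was at 10.19, 10.25, 9.68 and 9.71, and Cd34 at 9.77, 9.92, 9.39 and 9.42. The markers with the highest signal lay close to control, Col1a1 at 12.79, 12.77, 12.78 and 12.78, and Dcn at 12.47, 12.53, 12.47 and 12.50. The germ cell sum was thus higher and the fibroblast sum lower on the arrays with MBP, where Ccnb1, Ccnb2, Ttk and Cenpf were higher, and the part of either in those differences was not tested. Macrophage (1 of 9 passing), endothelial (2 of 4) and Leydig markers (2 of 6) varied by at most 0.11 in log2 summed signal across the arrays. The macrophage sum was 10.26, 10.18, 10.28 and 10.29, also higher on both arrays with MBP, and ranged no less than the fibroblast sum. Cd14, the macrophage marker that passed, was at 8.64, 8.63, 8.82 and 8.78. With MBP 2 of the 9 macrophage markers were higher than control and 6 lower. The part of the macrophage sum in the member differences was not tested.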

How the data were processed

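Total RNA of each group was hybridised to 1 Affymetrix rat gene-level array. The values are log2 signals of gene-level RMA made by the authors, as the file headers name it. MAS5 stands without a version in the submitters' processing notes instead. The workbook held the same log2 values as the deposited value table, with 0 cells differing by more than 1e-09. Groups were taken from the sample titles. The array of microRNAs was not used here.

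Members and lists were chosen with earlier results of these data known. Of 29214 probe sets, 27596 were not control sets, and 13798 had a mean log2 signal at or above their median, 7.50. Every member with a probe set of its symbol alone is named. Values on all arrays are given for the main proliferation and cyclin genes, the CDK inhibitors, and the most different members of each role, and others where a comparison uses them. For the pathway lists, a few of the highest and lowest genes over the MBP pairs are named. Coordinates of probe sets are those of the workbook and overlap the RGSC3.4 positions of its descriptions for 42 of 42 member rows that give them. Promoters are from RefSeq, GRCr8, matched by symbol.

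The additive model was fitted over all 13798 sets with lmFit and eBayes of limma 3.58.1 (R 4.3.3), with Benjamini-Hochberg adjustment over all sets. An interaction of the compounds counts as noise in it. The model was also run on simulated data with a common noise level and no interaction. That run cannot show how the model performs on these arrays. Nothing states whether the arrays came from separate cultures. The only residual of a gene is its departure from additive effects, which eBayes moderates with a variance shared over all sets. The p-values therefore measure no spread between replicates. Where the pairs of a compound hardly differed, as for Ccnb1 and Ccnb2, the SE of 0.0305 comes mainly from that shared variance. Alternatives were median centring, quantile normalization, cyclic loess, a 1.5-fold threshold, and no filter or one at the 75th percentile (9.17). Others were averaging the rows of each gene, a prior that follows signal, and the deposited value table. That value table holds the same values, so it could not change a result. Python 3.11.15, pandas 2.3.3, numpy 2.4.6 and matplotlib 3.10.9 did the rest.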

Additional observations from a re-analysis of the deposited data

Results flagged for a closer look

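Differences of opposite sign in the 2 pairs of one compound, each at least 0.05 in size, were taken up for a closer look. That floor was chosen after seeing the values. The MBP difference of Itgb3bp was 0.28 from control and -0.07 on top of NP, so the NP+MBP array lay 0.34 below the sum of the single differences (-0.34). For Cdca8, the MBP difference was 0.22 from control and -0.09 on top of NP, and the NP difference was 0.22 from control and -0.09 on top of MBP. The value of -0.31 in each case is the same contrast of the arrays, read either way. With 1 array per group, the difference between the pairs was not tested. Both genes have signals near the filter, and the control signal of Itgb3bp lies below it. Dixon's rule for outlying samples needs groups of at least 4 arrays and was not applied.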

How the results depend on the processing

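No paired analysis was possible because each group had 1 array. Leaving out an array was not run for the same reason. The direction of the member medians was the same under every alternative run. The spread used to judge a move was the SD of the member medians in the 2 pairs of a compound. For NP+MBP minus control it was the larger of those SDs. Of the member medians, 49 moved by no more than the spread and 1 moved, NP minus control, to 0.100 after median centring. The 49 include those of the deposited value table, which could not move. A move within the spread can still be large beside a median. Counts of members at least 1.2-fold higher moved as follows. After median centring they were 3 (NP against control), 4 (MBP against control), 1 (both compounds against MBP) and 2 (both against NP). After quantile normalization and after cyclic loess NP+MBP minus control had 5 each. With a filter at the 75th percentile, which left 16 members, the counts against control were 0 (NP), 0 (MBP) and 1 (both compounds), and 0 for NP+MBP minus NP. The member median less that of all sets was then 0.026 (NP), 0.038 (MBP) and 0.087 (NP+MBP) against control. With the main filter these were 0.050, 0.090 and 0.099. For NP+MBP minus MBP it was 0.028 beside 0.030, and for NP+MBP minus NP 0.004 beside 0.033. When the rows of each gene were averaged, the count was 2 for NP minus control and 0 for NP+MBP minus NP. With a 1.5-fold threshold all were 0. Less the median of all sets, MBP minus control had 1. In alternatives added after seeing the data, Casc5 read by its longest probe set gave 0 for NP+MBP minus NP, and leaving out Casc5 and Itgb3bp gave 0 (NP) and 1 (MBP) against control and 0 for NP+MBP minus NP. Another, without rows open to cross-hybridization, moved none of these counts by over 1.5 times. The cause of these moves was not tested.

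The lowest limma adjusted p among the members ran from 0.0327 to 0.545 for MBP and from 0.169 to 0.549 for NP over the alternatives. With the prior that follows signal 1 member, Casc5, passed for MBP, as did 100 of all sets, and 0 members in the other fits run. All sets past the threshold numbered 43 for MBP after median centring and 11 with the 75th percentile filter, against 0, and 13 for NP with no filter, 5 with the prior that follows signal, 2 after median centring and 1 with the 75th percentile filter, against 0. The median of all cyclin and CDK members for MBP minus control was 0.008, and it was -0.011 after quantile normalization and -0.018 after cyclic loess. For NP+MBP minus NP it was 0.006, and -0.012 and -0.009 after those. Signs of single members changed only where the difference was at most 0.04. Signal near the filter and 1 array per group limit what these values can show.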
